A study of Mus musculus with 24 samples.

Results

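Mitochondrial DNA encodes 7 subunits of complex I, and the levels of their transcripts were compared between retinas of 8 mouse strains. Complex I oxidises NADH, passes the electrons to ubiquinone and pumps protons across the inner mitochondrial membrane. The mitochondrially encoded subunits form the core of its membrane arm, while the arm that binds NADH is built from nuclear-encoded proteins. Retina depends heavily on respiration, and mitochondria are packed densely into the inner segments of photoreceptors. The members were taken by symbol (mt-Nd1, mt-Nd2, mt-Nd3, mt-Nd4, mt-Nd4l, mt-Nd5 and mt-Nd6). They are 7 of the 28802 genes in the deposited table, and 7 of 7 passed the filter on low values.

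Total RNA from retina was sequenced in 24 libraries, 3 from each of the strains 129S1/Svlmj, A/J, C57BL/6J, NOD/ShiLtJ, NZO/HlLtJ, WSB/EiJ, CAST/EiJ and PWK/PhJ. All mice were wild type and 28 days old. Ribosomal RNA was removed before the libraries were made, with a kit that keeps the strand of the RNA. The labels give no sex and no replicate numbers, so replicates are numbered here in the order of the labels. The mitochondrial haplotypes of CAST/EiJ and PWK/PhJ, strains derived from wild mice, differ most from the reference genome, which was made from C57BL/6J. Each of these 2 strains was therefore compared with the mean of the other 6, which are called the 6 strains in what follows, and each of the 6 strains was compared with the mean of the other 5. The comparisons of CAST/EiJ and of PWK/PhJ share the 18 libraries of the 6 strains.

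Values are cpm (counts of a gene scaled to the total reads of its library), and total reads recovered from the steps between low values were 57396000 to 77950000 per library. At these depths mt-Nd6 rested on 433 to 1667 reads in a library and mt-Nd4l on 295 to 815, with counting errors of 2.45% to 4.81% and 3.50% to 5.82%. The 7 members together took 0.213% to 0.421% of the summed cpm of a library. Differences are on the scale of log2(cpm + 1), which understates differences of genes with low values such as mt-Nd4l and mt-Nd6. Signed values beside a gene, with no unit, are log2 differences on this scale, and medians of genes are of the same kind. A gene was called where limma's moderated test gave a Storey q-value under 0.01 over the 16400 genes tested. In some settings each library was rescaled to its 13 mitochondrial mRNAs, which include the members, and this moved all genes together. With these mRNAs alone in the sum, the median of all genes moved by 0.59 in PWK/PhJ. The share of all genes called in these settings is not given, so a call there does not by itself set a member apart. The methods of the study call each library a biological replicate, and the p-values measure the spread between these libraries.

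The tissue label was checked against markers. Recoverin (Rcvrn), a calcium sensor of photoreceptors, had 139.8 to 204 cpm in the 24 libraries, and 12 of 12 markers of retinal neurons and glia were present, the lowest value being 4.55 cpm for Rbpms. Lens genes, with Cryaa as the most abundant of 7 listed, summed to 1710 cpm in 129S1/Svlmj replicate 2 and 1901 cpm in NOD/ShiLtJ replicate 2. Markers of muscle were low, at 0.978 to 3.22 cpm summed over 5 genes. Xist, which is transcribed from the inactive X chromosome, had 962 cpm in 129S1/Svlmj replicate 3, 906 in C57BL/6J replicate 3, 1046 in CAST/EiJ replicate 3 and 1081 in PWK/PhJ replicate 2, and at most 9.71 cpm in the other libraries. Sex was not a term of the fit.

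One library stood apart in the members. C57BL/6J replicate 2 had 448 cpm of mt-Nd1, where replicates 1 and 3 had 726 and 749.5, and 8.06 cpm of mt-Nd6, where they had 18.7 and 14.8. The low values were not limited to the members. The 13 mitochondrial mRNAs, which include them, took 1.554% of the summed cpm of this library, against 2.218% and 2.208% in replicates 1 and 3. The lens sum of C57BL/6J replicate 2 was 224 cpm, against 5.08 and 10.2, and its sum over 6 markers of pigment epithelium was 17.1, against 30.9 and 33.5. The members of 129S1/Svlmj replicate 2 and NOD/ShiLtJ replicate 2, with higher lens sums, were not low: mt-Nd1 was 586 and 591 cpm there. The part of lens RNA in the values of C57BL/6J replicate 2 was not tested, and calls of single members that it changes are given with and without it.

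The positions of the genes bear on how far their reads can be told apart. The methods of the study name RefSeq as the annotation, while the gene names in the table are of the Ensembl type. Positions and IDs given here are those of GENCODE M21, whose coordinates 27719 of 27950 genes with one entry matched, so the annotation used in counting is uncertain. On the mitochondrial genome of GRCm38, mt-Nd1 (ENSMUSG00000064341, chrM:2751-3707), mt-Nd2 (ENSMUSG00000064345, chrM:3914-4951), mt-Nd3 (ENSMUSG00000064360, chrM:9459-9806) and mt-Nd4l (ENSMUSG00000065947, chrM:9877-10173) lie on the + strand. So do mt-Nd4 (ENSMUSG00000064363, chrM:10167-11544) and mt-Nd5 (ENSMUSG00000064367, chrM:11742-13565), while mt-Nd6 (ENSMUSG00000064368, chrM:13552-14070) lies on the - strand. The messengers are cut from long precursors that cover most of either strand, and mt-Nd4l and mt-Nd4 stay together on a single messenger. The end of mt-Nd4l and the start of mt-Nd4, from the GENCODE M21 transcripts (chrM:10144-10173 and chrM:10167-10196, + strand), are shown with the 7 bases they share in capitals.
mt-Nd4l end: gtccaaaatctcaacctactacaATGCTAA
mt-Nd4 start: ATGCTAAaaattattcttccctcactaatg
The 14 last bases of mt-Nd5 (chrM:13552-13565) are also the last of mt-Nd6, on opposite strands. Use of the strand in counting is not given in the sources used here, so the share of mt-Nd5 reads in the low values of mt-Nd6 is uncertain.

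Copies of mitochondrial DNA inserted in nuclear chromosomes can take reads of the mitochondrial genes, and the table lists 15 such copies as pseudogenes, 6 of which match members. Gm28438 on chromosome 1 (chr1:24612775-24613119, - strand) holds 345 bases of mt-Nd3 with 1 mismatch, and Gm10222 beside it (chr1:24612407-24612700, - strand) holds 294 bases of mt-Nd4l with 0 mismatches. Gm28439 (chr1:24611535-24612410, - strand) holds the first 876 bases of mt-Nd4 with 0 mismatches. More distant copies are Gm13339 (chr2:22590024-22590533, - strand), with 96.7% identity to 510 bases of mt-Nd2, and Gm4076 (chr13:85126550-85127514, - strand) and Gm11407 (chr4:80002331-80003388, + strand), with 95.2% and 92.3% identity to parts of mt-Nd5. For mt-Nd1 no copy passed the limits, and the copy of mt-Nd6 found by alignment, Gm11408, is not in the table. Levels of mt-Nd3 and mt-Nd4l are uncertain for this reason, since a read can match gene and copy equally well. The reads of all strains were aligned to the reference genome. How many reads of CAST/EiJ, PWK/PhJ or other strains were lost, or moved to copies, because their sequences differ from it was not tested, so the levels below are those counted on the reference genes.

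**Figure D1:**
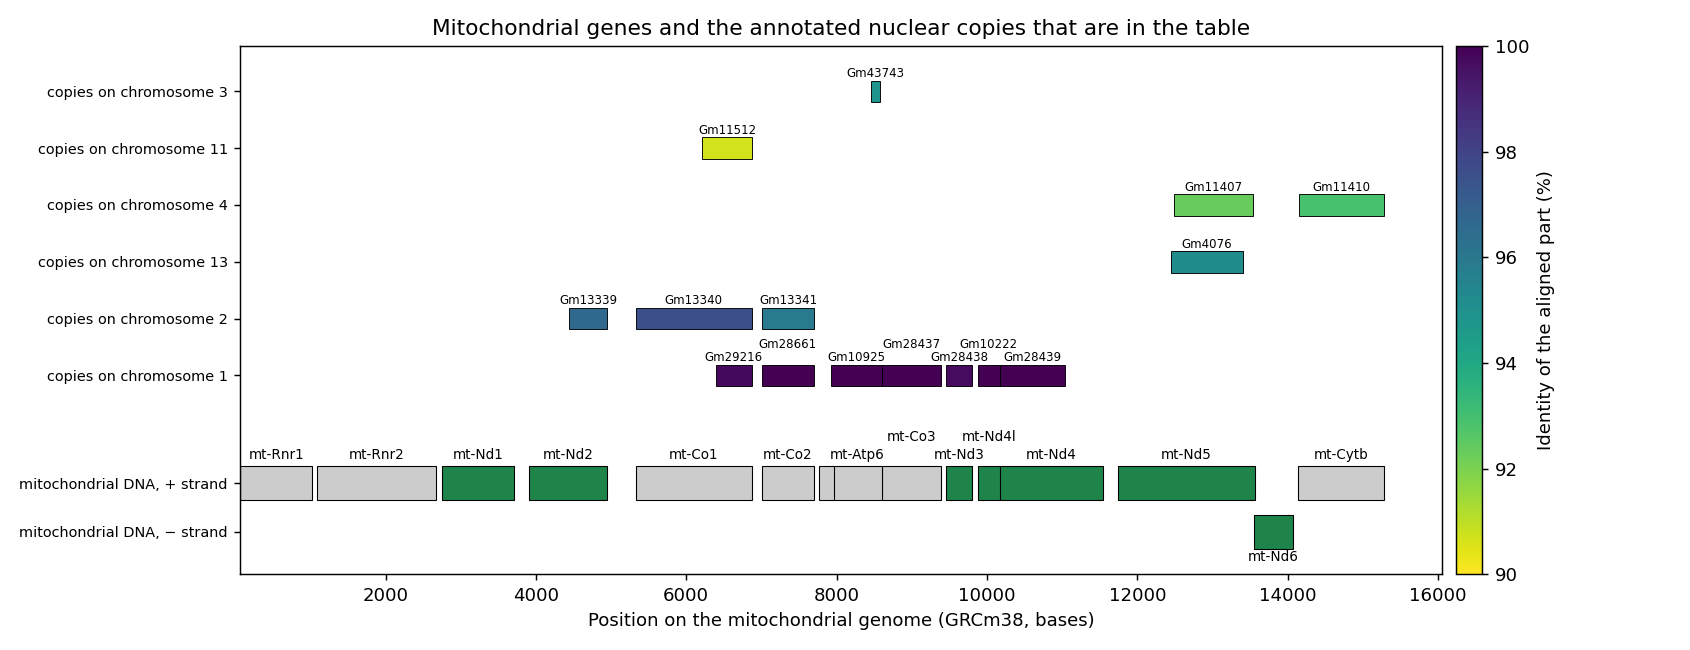
Map of the mitochondrial genome of GRCm38 in bases, with the 7 members in green, other genes in grey and, above them, the stretches that nuclear copies in the table match, coloured by percent identity. The copies on chromosome 1 reach from mt-Co1 through mt-Nd3 and mt-Nd4l into mt-Nd4.

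The single mismatch of Gm28438 lies near the start of mt-Nd3. The first 40 bases of mt-Nd3 (chrM:9459-9498, + strand) and of Gm28438 (chr1:24613080-24613119, - strand), from the GENCODE M21 transcripts, differ by T3C, counted from 1 at the 5′ end of the gene, and capitals mark that base.
mt-Nd3: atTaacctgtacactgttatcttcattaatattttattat
Gm28438: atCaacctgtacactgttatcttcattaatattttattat
Of mt-Nd2 and mt-Nd5, the 80-base windows with the most mismatches to Gm13339 and Gm4076 show how far these copies have moved from the gene. The first pair covers bases 702 to 781 of mt-Nd2 (chrM:4615-4694, + strand) and chr2:22590281-22590360 (- strand), with the 5 mismatches T711C, T726C, C759T, C780T and T781C in capitals.
mt-Nd2: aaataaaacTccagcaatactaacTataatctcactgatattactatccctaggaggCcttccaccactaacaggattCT
Gm13339: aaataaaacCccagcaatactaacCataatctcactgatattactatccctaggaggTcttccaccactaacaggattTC
The other pair covers bases 899 to 978 of mt-Nd5 (chrM:12640-12719, + strand) and chr13:85127242-85127321 (- strand), with 11 mismatches in capitals, the first being A904G and the last C978T.
mt-Nd5: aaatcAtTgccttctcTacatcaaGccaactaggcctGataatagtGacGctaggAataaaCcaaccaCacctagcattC
Gm4076: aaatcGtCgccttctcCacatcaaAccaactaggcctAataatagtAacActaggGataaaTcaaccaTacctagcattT

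Per kilobase of gene, mt-Nd1 was the most abundant member, with a mean of 531 cpm per kb over the strains. It was followed by mt-Nd3 (199), mt-Nd4 (159), mt-Nd2 (117), mt-Nd5 (56.6), mt-Nd4l (26.0) and mt-Nd6 (24.5). On the same scale mt-Co1, a subunit of cytochrome c oxidase, reached 1750 cpm per kb and mt-Cytb, of complex III, 524. mt-Nd4l was far below mt-Nd4 although they share a messenger. mt-Nd4l is short and has a nearly full copy, and the part of either in that gap was not tested. Gm10222 held more than mt-Nd4l itself in every strain, at 126 to 173 cpm per 100 cpm of mt-Nd4l in the strain means.

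Over the 8 strains, limma's moderated F-test called 7 of 7 members, where 97.2% of all genes tested were called, so this count is no result about the members. With limma's p and Storey's q-value, calls reached an unadjusted p of 0.466. In that limma fit mt-Nd5 was among those with weak evidence (q = 0.00253 at an unadjusted p of 0.107), and by the Benjamini-Hochberg adjustment 6 of 7 members passed, where 70.6% of all genes did. The size of the differences says more: the median range of strain means was 1.06 log2 units for the members and 0.43 for all genes.

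Each member had its own order of strains. For mt-Nd1, which borders the site where ubiquinone binds, C57BL/6J was highest (641 cpm), followed by CAST/EiJ (621), 129S1/Svlmj (589), NOD/ShiLtJ (537), A/J (516), WSB/EiJ (488), NZO/HlLtJ (355) and PWK/PhJ (316). Between WSB/EiJ and NZO/HlLtJ the 3 values of the neighbours did not overlap, and the other 6 pairs of neighbours did. mt-Nd2, mt-Nd4 and mt-Nd5 encode the antiporter-like subunits that line the proton path. mt-Nd2 ran from C57BL/6J (180.3 cpm) through 129S1/Svlmj (146), A/J (137), NOD/ShiLtJ (133), WSB/EiJ (116), CAST/EiJ (113) and NZO/HlLtJ (73.6) to PWK/PhJ (69.3). Its values did not overlap between the neighbours NOD/ShiLtJ and WSB/EiJ or between CAST/EiJ and NZO/HlLtJ. The lowest library of A/J, at 117 cpm, still lay inside the range of WSB/EiJ (106 to 127). mt-Nd4 was highest in CAST/EiJ (351 cpm), clear of C57BL/6J (230.1), and the remaining strains followed without a break down to WSB/EiJ (167). For mt-Nd5 the strain means ran from 89.7 cpm in NZO/HlLtJ to 119.8 in C57BL/6J, and in all 7 pairs of neighbours the values overlapped.

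The small subunits mt-Nd3, mt-Nd4l and mt-Nd6 sit between the ubiquinone site and the proton path. mt-Nd3 was highest in PWK/PhJ (104 cpm) and C57BL/6J (102), which overlapped, followed after a break by CAST/EiJ (72.4) and after another by the other 5 strains, from 129S1/Svlmj (58.8) to NOD/ShiLtJ (47.3). For mt-Nd4l the order ran from CAST/EiJ (10.4 cpm) and PWK/PhJ (9.21) to NZO/HlLtJ (5.61) and WSB/EiJ (5.24), and these last 2 were the only neighbours whose values did not overlap. mt-Nd6, read from the opposite strand, was highest in NOD/ShiLtJ (16.4 cpm) and lowest in CAST/EiJ (6.06), and CAST/EiJ was separate from its neighbour PWK/PhJ (10.5). In bulk retina fewer mitochondria-rich cells and less RNA per cell cannot be told apart.

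**Figure D2:**
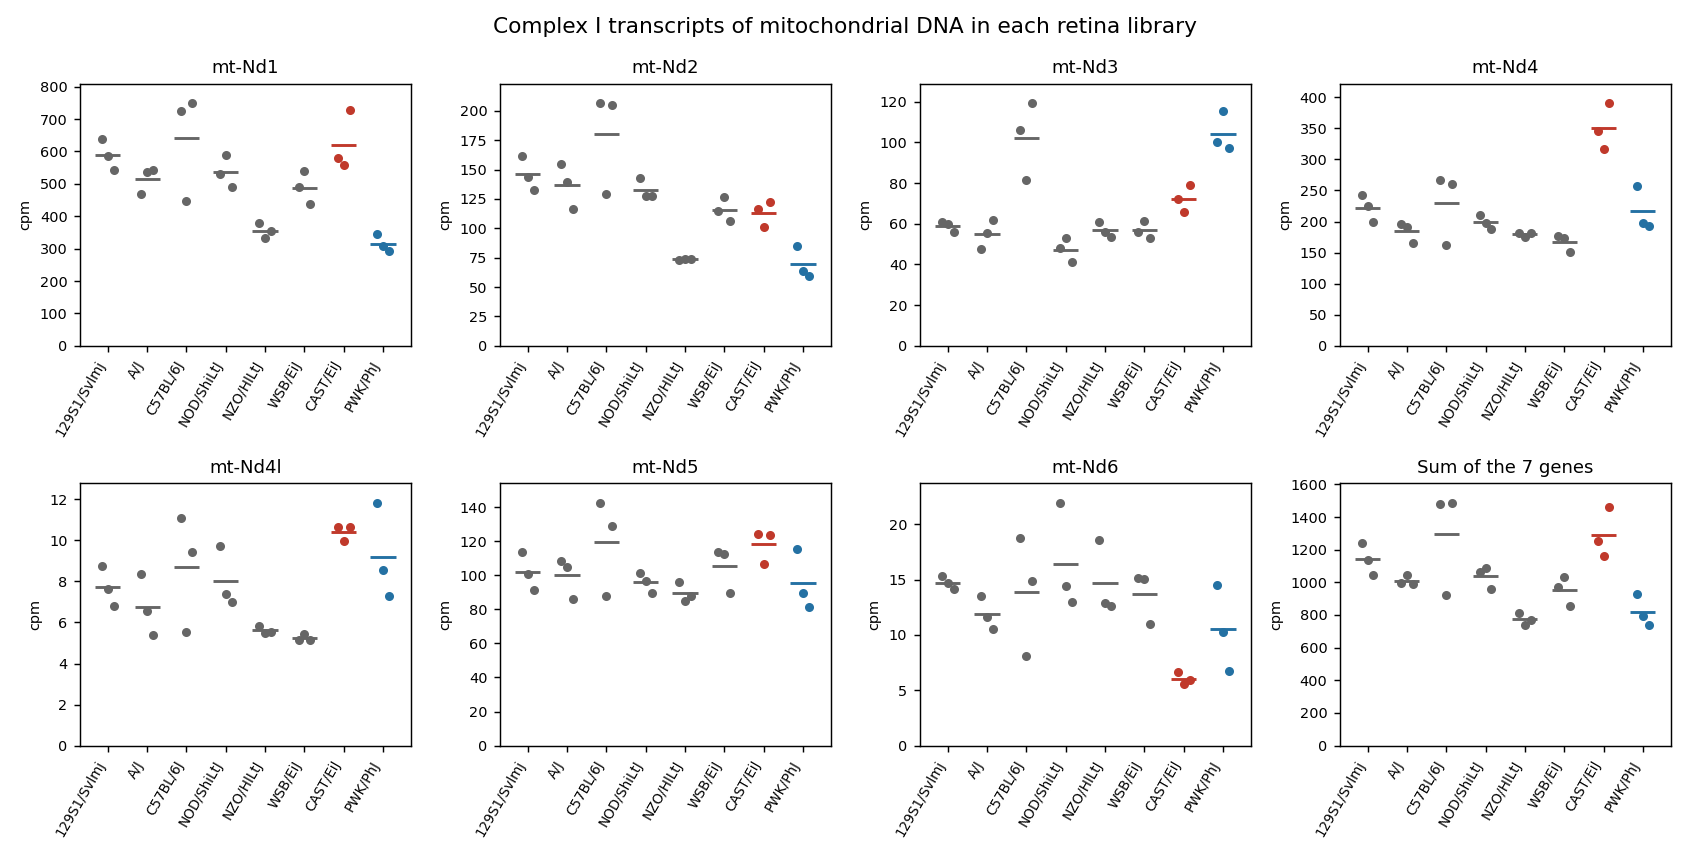
cpm of each member in the 24 libraries by strain, and of their sum, with points for libraries and lines for strain means. CAST/EiJ lies above all other libraries for mt-Nd4 and below them for mt-Nd6.

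In CAST/EiJ retinas more reads were counted on mt-Nd4 and mt-Nd4l and fewer on mt-Nd6 than in the 6 strains, and smaller differences of mt-Nd1 and mt-Nd3 also passed the test. limma called 5 of 7 members in this comparison, 4 of them higher and 1 lower, where 50.3% of all genes were called. The median difference was 0.25 for the members and -0.03 for all genes. By the Benjamini-Hochberg adjustment 3 members remained, mt-Nd4, mt-Nd4l and mt-Nd6, a count near the 41.7% of all genes called by it.

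mt-Nd4, an antiporter-like subunit, had 345, 317 and 391 cpm in the 3 CAST/EiJ libraries, against 151 to 268 (median 189.9) in the 18 libraries of the 6 strains. Every CAST/EiJ library was above every other library of the study. The mean of 351 ± 37.1 (SD, n = 3) was 1.79 times that of the 6 strains in limma's fit (log2 difference of 0.84, 95% interval 0.63 to 1.06, q = 1.23e-07). Gm28439, its copy, held no more than 0.655 cpm and so adds little. mt-Nd2 had 116, 101 and 123 cpm in CAST/EiJ, within the 72.8 to 207 (median 129) of the 6 strains, and was not called (log2 difference of -0.15, 95% interval -0.38 to 0.08, q = 0.0716). mt-Nd5 had 124, 107 and 124 cpm, also inside the range of the 6 strains (85.1 to 143, median 98.6), and was not called (log2 difference of 0.22, q = 0.0273). Rescaled to the 13 mitochondrial mRNAs, which moved the median of all genes by 0.11, it was called higher (0.35, q = 0.000768). With copies added and rescaled it was not (0.06, q = 0.0759). In that last setting, chosen after seeing the data, mt-Nd4 (0.55), mt-Nd4l (0.38) and mt-Nd6 (-1.33) kept their calls.

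mt-Nd6 was called lower in CAST/EiJ, where mt-Nd4 was called higher. Its values were 6.69, 5.57 and 5.91 cpm in CAST/EiJ and 8.06 to 21.9 (median 14.3) in the 6 strains. The groups did not overlap, and the next library above CAST/EiJ was PWK/PhJ replicate 3, with 6.74 cpm. The mean of 6.06 ± 0.572 (SD, n = 3) was lower than that of the 6 strains by 2.12 times in limma's fit (log2 difference of -1.08, 95% interval -1.46 to -0.70, q = 8.63e-06). Per kilobase, mt-Nd1 exceeded mt-Nd6 by 56.0 times in CAST/EiJ and by 13.5 to 26.2 times in the other strains. The ratio of mt-Nd6 to mt-Nd5, its neighbour on the opposite strand, was 0.18 per kb in CAST/EiJ and 0.379 to 0.598 in the other strains.

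mt-Nd4l, the small partner of mt-Nd4 on the same messenger, had 10.6, 9.96 and 10.7 cpm in CAST/EiJ and 5.14 to 11.1 (median 6.69) in the 6 strains, so they overlapped 1 library of that group, C57BL/6J replicate 1. limma's fit gave it a log2 difference of 0.54, 95% interval 0.27 to 0.82, q = 0.000446. Its copy Gm10222 was also higher in CAST/EiJ, with 16.0, 15.1 and 19.4 cpm against a mean of 10.2 in the 6 strains (log2 difference of 0.69, q = 3.21e-06), and the sum of gene and copy kept the call (log2 difference of 0.66, q = 1.44e-05). mt-Nd1 had 578, 558 and 728 cpm in CAST/EiJ, and the 18 libraries of the 6 strains had 333 to 749.5 (median 534). All 3 values lay inside that range, with replicate 3 well above the others. Replicate 3 was also the CAST/EiJ library with high Xist (1046 cpm, against 0.123 and 9.71), and the part of sex was not tested. The difference of mt-Nd1 was just past the limit of the test (log2 difference of 0.28, 95% interval 0.05 to 0.50, q = 0.00966). Without CAST/EiJ replicate 3 it was 0.16 (q = 0.104), and the call ended. It also ended in most other cases where 1 library was left out, such as without CAST/EiJ replicate 1 (q = 0.016), with no filter (q = 0.0203), quantile normalization (0.12, q = 0.0943), the Benjamini-Hochberg adjustment and eBayes without trend (q = 0.0114). Rescaled to the 13 mRNAs mt-Nd1 was called at 0.41, and with copies added and rescaled it was at -0.02 and not called.

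The direction of mt-Nd3 in CAST/EiJ depends on its copy. mt-Nd3 itself had 72.2, 65.9 and 79.1 cpm in CAST/EiJ and 41.1 to 119 (median 55.8) in the 6 strains, with C57BL/6J at the top of that range, and was called higher (log2 difference of 0.25, 95% interval 0.07 to 0.43, q = 0.00541). The call ended without CAST/EiJ replicate 1 (q = 0.0205) or replicate 3 (q = 0.0511). Gm28438 had 44.6, 52.1 and 57.5 cpm in CAST/EiJ, below every library of the other strains, whose lowest value was 66.0. It was lower by 1.83 times than in the 6 strains in limma's fit (log2 difference of -0.87, q = 4.6e-09). For each 100 cpm of mt-Nd3 the copy held 71.2 cpm in CAST/EiJ and 145 to 161 in the means of the 6 strains. With the copy added, mt-Nd3 was called lower in CAST/EiJ (log2 difference of -0.32, q = 0.000767), so the level of mt-Nd3 in this strain is uncertain in direction.

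A like turn was seen for mt-Nd2, with copies that were chosen after their values were seen. Gm13339, the copy on chromosome 2, had 59.5, 52.1 and 65.1 cpm in CAST/EiJ and 56.7, 41.7 and 38.6 cpm in PWK/PhJ, but at most 0.0941 cpm in each library of the 6 strains. Gene and copy together came to 172 ± 17.6 cpm (SD, n = 3) in CAST/EiJ, 115 ± 23.5 in PWK/PhJ, 180.4 ± 44.1 in C57BL/6J and 73.7 ± 0.754 in NZO/HlLtJ. With all aligned copies added, an alternative chosen after seeing the data, mt-Nd2 was called higher in CAST/EiJ in limma's fit (log2 difference of 0.45, q = 0.000514), where the gene alone was at -0.15. Gm4076 likewise had 19.6, 13.3 and 13.1 cpm in PWK/PhJ, 11.5, 10.7 and 10.7 in CAST/EiJ, and a mean of 0.191 in the 6 strains, carried by NZO/HlLtJ with 1.10. With its copies added, mt-Nd5 was called higher in CAST/EiJ (log2 difference of 0.35, q = 0.00278).

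**Figure D3:**
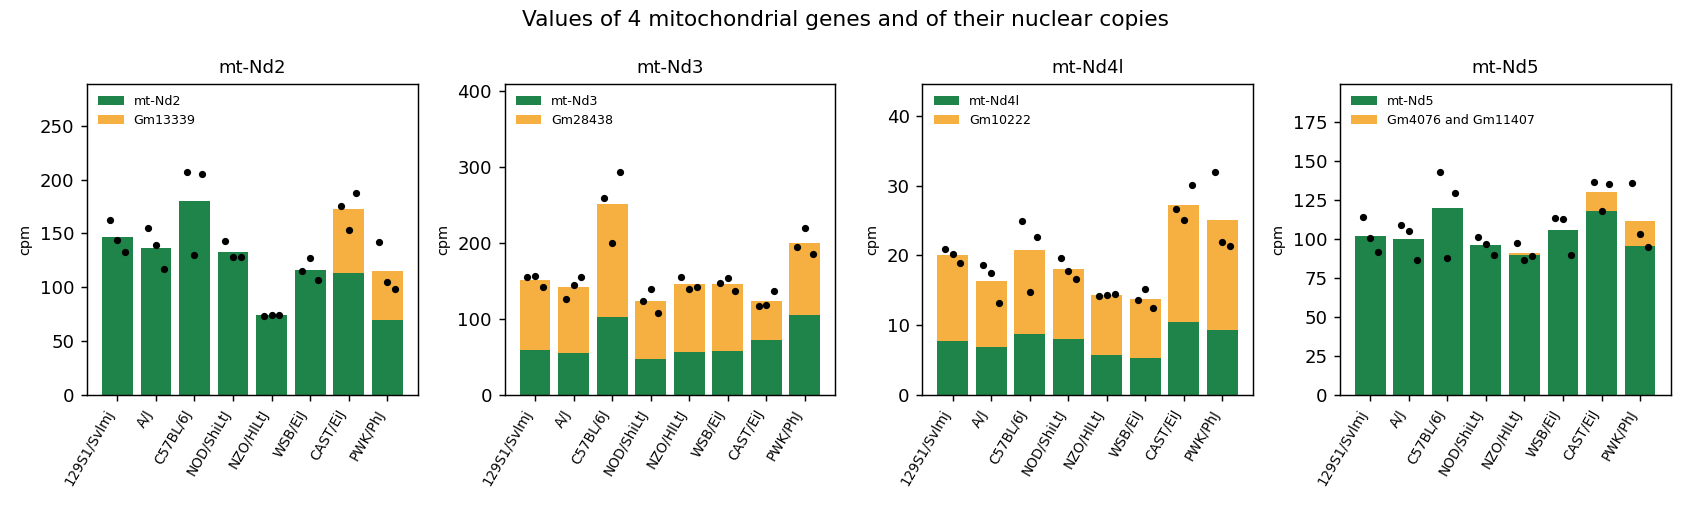
cpm of mt-Nd2, mt-Nd3, mt-Nd4l and mt-Nd5 by strain, with bars for the strain means of the gene and, stacked on it, its nuclear copies, and points for the sum in each library. Gm13339 adds to mt-Nd2 in CAST/EiJ and PWK/PhJ, and the copy of mt-Nd3 is smallest in CAST/EiJ.

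In PWK/PhJ retinas fewer reads were counted on mt-Nd1 and mt-Nd2 and more on mt-Nd3 than in the 6 strains, and a smaller rise of mt-Nd4l passed the test. The call of mt-Nd2 did not outlast the adding of its copy. limma called 4 of 7 members, 2 higher and 2 lower, where 50.7% of all genes were called. The median difference was -0.10 for the members and 0.02 for all genes, with directions mixed.

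mt-Nd1 had 346, 309 and 292 cpm in PWK/PhJ, at or below the lower end of the 6 strains, where NZO/HlLtJ, with 379, 333 and 354 cpm, overlapped it. Its mean of 316 ± 27.2 (SD, n = 3) was lower by 1.62 times than in the 6 strains in limma's fit (log2 difference of -0.69, 95% interval -0.91 to -0.47, q = 2.58e-06). No copy of mt-Nd1 passed the limits, so no copy was added to it. The value depends on the scale: with each library rescaled to the sum of its 13 mitochondrial mRNAs, mt-Nd1 was at 0.01 and its call ended, since that sum was lower in PWK/PhJ, and the median of all genes moved by 0.59. The sum was 1.03% to 1.13% of the summed cpm of a PWK/PhJ library, and 1.89% to 2.11% with copies. With copies in the sum, chosen after seeing the data, mt-Nd1 was at -0.51 (q = 9.45e-08) and its call held. mt-Nd1 made up 8.21% of the 13 mRNAs in PWK/PhJ, 10.9% in CAST/EiJ, 5.61% in NZO/HlLtJ and 8.36% to 9.00% in the means of the other strains. Reads counted on copies, which added most to the sum in PWK/PhJ and CAST/EiJ, are not in these shares.

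mt-Nd2 had 85.1, 63.5 and 59.5 cpm in PWK/PhJ, and again NZO/HlLtJ, with 72.8, 74.0 and 74.1 cpm, was alone among the 6 strains in overlapping it. It was lower by 1.82 times than in the 6 strains in limma's fit (log2 difference of -0.87, 95% interval -1.10 to -0.64, q = 1.67e-07). With Gm13339 added the difference was -0.15 (q = 0.074) and the call ended. Rescaled to the 13 mitochondrial mRNAs, mt-Nd2 alone was at -0.18. The copy held 65.7 cpm per 100 cpm of mt-Nd2 in PWK/PhJ and 51.9 in CAST/EiJ. The ratio varied little between libraries, from 64.9 to 66.6 in PWK/PhJ and from 51.2 to 53.0 in CAST/EiJ.

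mt-Nd3 had 100.4, 115 and 97.0 cpm in PWK/PhJ, above the 15 libraries of the 6 strains outside C57BL/6J and overlapping the 106, 81.5 and 119 cpm of C57BL/6J. limma's fit gave a log2 difference of 0.77, 95% interval 0.59 to 0.95, q = 2.78e-08. Gm28438 had 93.4, 104 and 88.6 cpm in PWK/PhJ and was not called (log2 difference of 0.01, q = 0.24), and the sum of gene and copy kept the call at a smaller difference of 0.36 (q = 0.00027). Per kilobase, the ratio of mt-Nd3 to mt-Nd1 was 0.913 in PWK/PhJ and 0.242 to 0.447 in the means of the other strains.

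The other members differed less in PWK/PhJ. mt-Nd4l had 11.8, 8.53 and 7.27 cpm, with replicate 1 above all other libraries and the other replicates inside the range of the 6 strains, and was called in limma's fit (log2 difference of 0.36, 95% interval 0.08 to 0.63, q = 0.00745). Without PWK/PhJ replicate 1 its difference was 0.18 (q = 0.111), and the call also ended without PWK/PhJ replicate 2 (q = 0.0171) or 129S1/Svlmj replicate 3 (q = 0.0101), with no filter, with median-ratio, quantile and nuclear scaling and with the Benjamini-Hochberg adjustment. mt-Nd4 had 258, 198 and 193 cpm (log2 difference of 0.14, q = 0.0728) and mt-Nd5 115, 89.3 and 81.2 cpm (log2 difference of -0.10, q = 0.122), and neither was called. With copies added and no rescaling, the mean of mt-Nd5 was 111.3 cpm in PWK/PhJ, against 102.3 in the 6 strains. For the gene alone these means were 95.28 and 102.1, so the direction turned. mt-Nd6 had 14.5, 10.3 and 6.74 cpm, a wide spread, and was not called (log2 difference of -0.43, 95% interval -0.81 to -0.05, q = 0.0138). It was called without PWK/PhJ replicate 1 (log2 difference of -0.67, q = 0.00309) and without C57BL/6J replicate 2 (log2 difference of -0.48, q = 0.0028), while without PWK/PhJ replicate 3 it was at -0.17 and was not called. Rescaled to the 13 mitochondrial mRNAs, mt-Nd4 (0.84), mt-Nd5 (0.59) and mt-Nd6 (0.21, at an unadjusted p of 0.151) were called higher by limma in PWK/PhJ, the last pair with direction turned. The median of all genes moved by 0.59 in that setting, so these calls do not set the members apart from other genes. With copies in the sum, mt-Nd4 (0.32, q = 0.00055) and mt-Nd5 (0.30, q = 0.00187) were still called higher, and mt-Nd6 was at -0.27 (q = 0.0311), not called.

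Set directly against each other, CAST/EiJ was higher than PWK/PhJ for mt-Nd1, mt-Nd2 and mt-Nd4 and lower for mt-Nd3. limma called these 4 of 7 members, where 41.3% of all genes were called, and the median difference was 0.32 for the members and -0.04 for all genes. On this scale mt-Nd1 differed most, by 1.96 times (log2 difference of 0.97, 95% interval 0.68 to 1.26, q = 1.96e-06), and its values in the 2 strains did not overlap. mt-Nd2 was at 0.71 (q = 0.000106) and mt-Nd4 at 0.70 (q = 6.94e-05), and with copies added mt-Nd2 kept its call (0.59, q = 0.000672). Rescaled to the 13 mitochondrial mRNAs, which moved the median of all genes by -0.48, the calls of mt-Nd2 (0.15) and mt-Nd4 (0.14) ended, mt-Nd1 was at 0.40 (q = 1.46e-05), and mt-Nd6 and mt-Nd3 (-1.08) differed most. With copies in the sum mt-Nd1 (0.50) and mt-Nd3 (-1.15) kept their calls, mt-Nd4 was called (0.23, q = 0.00567) and mt-Nd2 was not (0.12, q = 0.0409). mt-Nd3 was at -0.52 (q = 0.000235), with no overlap of the 3 values on either side.

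mt-Nd4l (0.19, q = 0.138), mt-Nd5 (0.32, q = 0.0249) and mt-Nd6 (-0.65, q = 0.0102) were not called between CAST/EiJ and PWK/PhJ, and mt-Nd6 missed the limit narrowly. Its 95% interval, -1.15 to -0.15, does not reach 0, and it was called without PWK/PhJ replicate 3 (log2 difference of -0.91, q = 0.00182). It was also called with a pseudocount of 0.1 (-0.72, q = 0.00841), by rescaling to the 13 mRNAs (-1.17) and by rescaling with copies (-1.06). At an unchanged difference it was called without C57BL/6J replicate 1 (q = 0.00649) or 2 (q = 0.00355). The same held without NOD/ShiLtJ replicate 1 (q = 0.00795) or 3 (q = 0.00978) or NZO/HlLtJ replicate 1 (q = 0.00923). Without PWK/PhJ replicate 1 it was at -0.41 and not called. So the call of mt-Nd6 against the 6 strains in CAST/EiJ and its absence in PWK/PhJ do not by themselves show a difference between these strains. mt-Nd5 was called without C57BL/6J replicate 2 (q = 0.00872) at the same difference, and without PWK/PhJ replicate 1 (0.46, q = 0.0058). Rescaling to the 13 mRNAs turned mt-Nd5 (-0.24, q = 0.00437) and mt-Nd4l (-0.33, q = 0.0038), both then called lower in CAST/EiJ, and with copies added and rescaled both were called lower too (-0.23 and -0.32). Their direction between these strains is uncertain.

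Among the 6 strains the differences were clearest in mt-Nd1, mt-Nd2 and mt-Nd3. limma's moderated F-test called 5 of 7 members, where 69.9% of all genes were called, and 6 without C57BL/6J replicate 2, where 73.8% were, the added one being mt-Nd5 (q = 0.000745). The median range of strain means was 0.59 log2 units for the members and 0.30 for all genes. In limma's fit mt-Nd3 (q = 7.29e-08) and mt-Nd2 (q = 4.13e-07) differed most clearly, followed by mt-Nd1 (q = 5.19e-05). mt-Nd4l (q = 0.00206) and mt-Nd4 (q = 0.00436) were called by limma's q-value and not by the Benjamini-Hochberg adjustment, which called 3 members and 46.8% of all genes. mt-Nd5 (q = 0.0226) and mt-Nd6 (q = 0.0642) were not called.

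NZO/HlLtJ stood low for mt-Nd1 and mt-Nd2, which lie next to each other. limma called 2 of 7 members there, 2 of them lower, where 20.8% of all genes were called, with a median of -0.21 over the members and 0.00 over all genes. mt-Nd1 had 379, 333 and 354 cpm and was lower by 1.54 times than the mean of the other 5 strains (log2 difference of -0.62, 95% interval -0.85 to -0.40, q = 5.87e-05). mt-Nd2 had 72.8, 74.0 and 74.1 cpm and was lower by 1.89 times (log2 difference of -0.92, 95% interval -1.15 to -0.68, q = 5.74e-07). In both genes no library of the other 5 strains reached as low. Adding copies left the difference of mt-Nd2 at -0.92 in limma's fit (q = 6.57e-07), since Gm13339 was near its floor in these strains. NZO/HlLtJ did stand apart from the other 5 in other distant copies. Gm13340 held 4.03 cpm per 100 cpm of mt-Co1, against at most 0.0258 in their means, Gm4076 1.22 per 100 cpm of mt-Nd5, against at most 0.0164, and Gm43743 0.0854 per 100 cpm of mt-Atp6, against at most 0.00143. The part of reads lost or moved to copies in the low values of NZO/HlLtJ was not tested. Without C57BL/6J replicate 2, mt-Nd4l was called lower as well (-0.35, q = 0.00995), and with it was at -0.29 (q = 0.0543).

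C57BL/6J, the strain of the reference genome, was higher for mt-Nd2 and mt-Nd3. limma called 2 of 7 members, where 17.4% of all genes were called, and the median was 0.31 over the members and 0.00 over all genes. mt-Nd3 had 106, 81.5 and 119 cpm, above each library of the other 5 strains, and was higher by 1.83 times (log2 difference of 0.88, 95% interval 0.69 to 1.06, q = 3.53e-08). Its copy Gm28438 had 154, 118 and 173 cpm, also above the libraries of the other 7 strains. mt-Nd2 had 207, 129 and 205 cpm, with replicate 2 among the values of the other strains (log2 difference of 0.58, 95% interval 0.35 to 0.81, q = 0.000222). Without C57BL/6J replicate 2, 6 of 7 members were called, where 13.9% of all genes were, with mt-Nd1 at 0.59 (q = 1.99e-05), where it was at 0.35 (q = 0.0112) with that library. Without that library mt-Nd4 was at 0.48 (q = 0.000231), with it at 0.25 (q = 0.0553), mt-Nd4l at 0.57 (q = 0.00133), with it at 0.31 (q = 0.0587), and mt-Nd5 at 0.46 (q = 0.00156), with it at 0.26 (q = 0.0574).

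In NOD/ShiLtJ limma called 1 of 7 members, mt-Nd3, where 17.9% of all genes were called, with medians of 0.09 over the members and 0.03 over all genes. mt-Nd3 had 47.9, 52.9 and 41.1 cpm and was lower by 1.35 times than the mean of the other 5 strains (log2 difference of -0.43, 95% interval -0.61 to -0.24, q = 0.000426), and the call ended without NOD/ShiLtJ replicate 3 (log2 difference of -0.33, q = 0.0142). The values overlapped those of A/J (47.8, 55.5 and 61.8 cpm), and the mean of the other 5 strains holds C57BL/6J at 102 cpm, where the other 4 were at 55.0 to 58.8. NOD/ShiLtJ was not tested against those 4 alone. In WSB/EiJ 1 of 7 members was called, mt-Nd4l, where 32.2% of all genes were called, with medians of -0.11 over the members and -0.04 over all genes. mt-Nd4l had 5.16, 5.43 and 5.14 cpm there (log2 difference of -0.39, 95% interval -0.67 to -0.11, q = 0.00983). The values of WSB/EiJ overlapped A/J replicate 3 and lay just under those of NZO/HlLtJ, and the Benjamini-Hochberg adjustment ended the call (q = 0.0252), as did leaving out any one WSB/EiJ library. Without C57BL/6J replicate 2, mt-Nd4 was called lower in WSB/EiJ (-0.31, q = 0.000909), and with it was at -0.27 (q = 0.0201). By rescaling to the 13 mRNAs, which moved the median of all genes by 0.18, mt-Nd5 was called higher in WSB/EiJ (0.29, q = 0.00434) and mt-Nd4l was not called.

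In 129S1/Svlmj limma called 0 of 7 members, where 20.4% of all genes were called. At an unadjusted p under 0.05 there were 3 (mt-Nd1, mt-Nd2 and mt-Nd4), where 36.6% of all genes were under it, and the Benjamini-Hochberg adjustment called 0 members and 16.6% of all genes. mt-Nd3 was called lower in 129S1/Svlmj when rescaled to the 13 mitochondrial mRNAs (-0.25, q = 0.00324), which moved the median of all genes by -0.17. mt-Nd1 was at a log2 difference of 0.25, 95% interval 0.02 to 0.47, q = 0.0466. The members' median was 0.18 and that of all genes 0.00. In A/J limma called 0 of 7 members, where 20.6% of all genes were called, with 0 at an unadjusted p under 0.05 (37.5% of all genes) and 0 by the Benjamini-Hochberg adjustment (16.6%). With copies added and rescaled, mt-Nd2 was called higher in A/J (0.30, q = 0.00786). The member with the lowest p in A/J was mt-Nd3 (log2 difference of -0.17, 95% interval -0.36 to 0.01, q = 0.0745), and the medians were -0.03 over the members and 0.01 over all genes. That a member was called in one of the 6 strains and not in another was not tested as a difference between them.

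The members did not move as one block between libraries. Over the 24 libraries, which share strains, Pearson's r of log2(cpm + 1) was 0.884 for mt-Nd1 and mt-Nd2 and 0.859 for mt-Nd4l and mt-Nd4, which lie on one messenger. For mt-Nd3 with mt-Nd1 it was -0.031, and for mt-Nd6 with the other members it ran from -0.371 (mt-Nd4) to 0.327 (mt-Nd2). Per kilobase, mt-Nd1 exceeded mt-Nd4 by 2.12 times in PWK/PhJ, 2.54 times in CAST/EiJ, 2.85 times in NZO/HlLtJ and 3.82 to 4.21 times in the means of the other 5 strains. As a share of the 13 mitochondrial mRNAs, mt-Nd4 made up 6.15% in CAST/EiJ, 5.61% in PWK/PhJ and 2.84% to 3.32% in the others. Reads counted on copies, such as those of mt-Co1, the largest of the 13, are not in these shares.

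The other mitochondrial mRNAs, for subunits of complexes III, IV and V, differed between strains as well. In CAST/EiJ 6 of 6 were called (50.3% of all genes), 2 higher and 4 lower, with a median of -0.30. mt-Co3 was at 0.46 (q = 4.43e-08) and mt-Cytb at 0.54 (q = 2.21e-05), while mt-Co1 (-0.66, q = 1.35e-08), mt-Co2 (-0.27, q = 0.00608), mt-Atp6 (-0.35, q = 0.0075) and mt-Atp8 (-0.33, q = 0.00926) were lower. In PWK/PhJ 4 of 6 were called (50.7% of all genes), 0 higher and 4 lower, with a median of -0.61. They were mt-Co1 (-1.43, q = 2.04e-14), mt-Atp8 (-0.77, q = 5.96e-06), mt-Atp6 (-0.73, q = 1.48e-05) and mt-Co2 (-0.49, q = 3.69e-05), and mt-Co3 (0.13, q = 0.0122) and mt-Cytb (-0.01, q = 0.248) were not called. mt-Co1 had 1172, 1182 and 1070 cpm in PWK/PhJ, below every other library. Gm13340, its copy on chromosome 2 next to Gm13339, held 1236 cpm in PWK/PhJ, 1786 in CAST/EiJ and 133 in NZO/HlLtJ, and at most 0.80 in the means of the other 5 strains. With copies, mt-Co1 came to 3739 cpm in CAST/EiJ and 2609 in PWK/PhJ, against a mean of 3221 in the 6 strains. mt-Co2 with copies came to 1471 in CAST/EiJ and 1084 in the 6 strains. So the lower values of mt-Co1 and mt-Co2 alone in CAST/EiJ do not hold for these sums, while mt-Atp6 with copies came to 508 in CAST/EiJ and 654 in the 6 strains. The sums were not tested.

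In the direct comparison of CAST/EiJ with PWK/PhJ, 3 of the other 6 mRNAs were called, 3 of them higher in CAST/EiJ, where 41.3% of all genes were called. Across the 6 strains 4 of 6 were called, near the 69.9% of all genes. In single strains, with the shares of all genes in brackets, there were 1 in 129S1/Svlmj (20.4%), 1 in A/J (20.6%), 0 in C57BL/6J (17.4%), 0 in NOD/ShiLtJ (17.9%), 0 in NZO/HlLtJ (20.8%) and 3 in WSB/EiJ (32.2%). NZO/HlLtJ thus had its low mt-Nd1 and mt-Nd2 with 0 of the 6 other mitochondrial mRNAs called. The ribosomal RNAs are what the depletion left. mt-Rnr2 had 29.9, 25.0 and 28.9 cpm in CAST/EiJ, above every other library, whose values were 3.25 to 8.47, and differed by 2.36 (q = 1.67e-14) from the 6 strains. In PWK/PhJ it differed by 0.56 (q = 9.05e-05). mt-Rnr1 was at 0.46 (q = 0.000597) in CAST/EiJ and was not called in PWK/PhJ (-0.25, q = 0.0223).

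Nuclear genes for the rest of complex I were compared in the same fit. Of 36 nuclear subunits tested, 8 were called in CAST/EiJ (5 higher, 3 lower; median -0.03) and 13 in PWK/PhJ (8 higher, 5 lower; median 0.02), which is 22.2% and 36.1% of the list, where 50.3% and 50.7% of all genes were called. In CAST/EiJ Ndufa10 (0.27, q = 4.73e-05) and Ndufv3 (0.29) were among those on the higher side. Ndufab1, the acyl carrier protein, fell from 10.7 cpm in the 6 strains to 6.64 (-0.62, q = 8.24e-12), with Ndufa12 (-0.38) and Ndufa5 (-0.21) also lower. In PWK/PhJ Ndufa8 (0.46, q = 6.1e-07), Ndufa10 (0.36) and Ndufb8 (0.35) were higher and Ndufa12 (-0.41, q = 1.38e-06), Ndufs8 (-0.24) and Ndufs3 (-0.18) lower.

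Assembly factors of complex I were called in 5 of 18 cases in CAST/EiJ (0 higher, 5 lower; median -0.01) and 9 of 18 in PWK/PhJ (1 higher, 8 lower; median -0.12). These shares, 27.8% and 50%, are not above the 50.3% and 50.7% of all genes. Tmem126b, which helps to build the membrane arm, fell from 7.72 cpm in the 6 strains to 3.31 in PWK/PhJ (-1.02, q = 9.24e-15). Timmdc1 (-0.34), of the same assembly complex, and Dmac2 (-0.32) were also lower and Foxred1 (0.30) was higher. In CAST/EiJ Dmac2 (-0.71, q = 3.76e-10), Ndufaf4 (-0.26) and Tmem186 (-0.20) were lower.

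Genes that transcribe, cut or stabilise mitochondrial RNA were called in 16 of 26 cases in CAST/EiJ (5 higher, 11 lower; median -0.10) and 11 of 26 in PWK/PhJ (4 higher, 7 lower; median -0.01). The shares of 61.5% and 42.3% lie to either side of those of all genes (50.3% and 50.7%). Lrpprc, which binds and stabilises mitochondrial messengers, was lower in both: it had 23.9 cpm in CAST/EiJ (-1.13, q = 2.4e-16) and 23.9 in PWK/PhJ (-1.13, q = 2.26e-16), against 58.4 in the 6 strains. Whether the members follow Lrpprc was not tested. In CAST/EiJ Mterf1b (0.68), Mterf1a (0.34) and Mterf3 (0.34), of the family of mitochondrial termination factors, were higher, and Mterf4 (-0.46) and Rexo2 (-0.22) were lower. In PWK/PhJ Mterf1b (0.44), Mterf3 (0.38) and Fastkd1 (0.16) were higher, while Mterf2 (-0.69) and Fastkd2 (-0.54), a factor for the stability of mitochondrial RNA, were lower.

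Of 8 genes for mitochondrial DNA replication, 5 were called in CAST/EiJ (2 higher, 3 lower, median -0.05) and 1 in PWK/PhJ (0 higher, 1 lower, median -0.01). These are 62.5% and 12.5% of a short list, where 50.3% and 50.7% of all genes were called. Ssbp1, which coats single-stranded mitochondrial DNA, rose from 13.2 to 22.8 cpm in CAST/EiJ (0.75, q = 2.55e-13), and the helicase Twnk (0.37) was also higher. Top1mt (-0.41), Polg (-0.19) and Tfam (-0.14) were lower. In PWK/PhJ Polg2, the accessory subunit of the polymerase, fell from 11.4 to 5.56 cpm (-0.87, q = 5.75e-11). Mitochondrial DNA itself was not analysed here.

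Markers of tissue next to the retina also differed between the strains. Of 6 markers of pigment epithelium 5 were tested, and Best1 was at or near its floor in all libraries. In CAST/EiJ 4 of 5 were called lower, with sums of 16.2, 13.2 and 15.1 cpm, in PWK/PhJ 5 of 5, with 12.7, 19.4 and 9.79 cpm, and in NZO/HlLtJ 4 of 5, with 13.6, 20.3 and 12.8 cpm. WSB/EiJ had 3 of 5 higher and sums of 82.7, 50.2 and 52.2 cpm. Of all genes, 50.3% were called in CAST/EiJ, 50.7% in PWK/PhJ, 20.8% in NZO/HlLtJ and 32.2% in WSB/EiJ. Sums in the other strains were 41.8, 46.1 and 39.1 cpm in 129S1/Svlmj, 16.3, 43.4 and 75.2 in A/J and 23.9, 19.7 and 21.7 in NOD/ShiLtJ. Ttr was the most abundant of these genes in 129S1/Svlmj and NOD/ShiLtJ, and Rgr in the other strains. PWK/PhJ and NZO/HlLtJ, with low mt-Nd1 and mt-Nd2, also had low sums of these markers. CAST/EiJ, with sums as low, had mt-Nd4 and mt-Nd1 called higher and mt-Nd2 not called. NOD/ShiLtJ, whose sums of 19.7 to 23.9 cpm came close to these, had mt-Nd1 at 537 cpm and mt-Nd2 at 133 cpm, and neither was called. The part of pigment epithelium in these results was not tested.

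Blood markers, led by Hbb-bs, were lower in CAST/EiJ for 3 of 4 tested, with sums of 13.1, 11.1 and 12.8 cpm, and in PWK/PhJ for 2 of 4, with 21.8, 7.45 and 14.8 cpm. In the 18 libraries of the 6 strains these sums ran from 7.46 to 30.7 cpm. Lens markers were called in 0 of 7 cases in CAST/EiJ, where their sums were 20.1, 5.00 and 20.7 cpm, and in 0 of 7 in PWK/PhJ, with 68.9, 47.0 and 87.3 cpm. The 1 muscle marker tested was not called in CAST/EiJ and was called higher in PWK/PhJ. Of the 12 markers of retinal neurons and glia, 11 were called in CAST/EiJ (4 higher, 7 lower; median -0.20) and 3 in PWK/PhJ (1 higher, 2 lower; median 0.02). These are 91.7% and 25% of the list, where 50.3% and 50.7% of all genes were called. The blood, lens and muscle counts stand against the same shares of all genes. The part of retinal neurons and glia, and that of blood, in the levels of the members was not tested.

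The genes outside the mitochondrial genome whose levels were most alike those of a member were found by Pearson's r of log2(cpm + 1) over the 24 libraries, with nuclear copies left out. For mt-Nd1 they were Ptar1 (0.888) and Vcam1 (0.859), for mt-Nd2 Cd1d1 (0.866) and Gm42716 (0.848), and for mt-Nd3 Knl1 (0.922) and Rpl29 (0.913). For mt-Nd4 the closest were Ddx5 (0.9) and Dek (0.896), for mt-Nd4l Cebpz (0.853) and Gm12183 (0.825) and for mt-Nd6 Ppid (0.861) and Gm7451 (0.858). These values are a description over libraries that share strains.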

How the data were processed

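Per the submitters' processing notes, low-quality bases were trimmed, and STAR aligned the reads to GRCm38/mm10. Partek Flow counted genes with an expectation-maximization model, which divides reads between genes they match. Versions are not given in the sources used here. The deposited values are cpm: the authors divided each count by the total reads of the library and added 0.0001.

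R 4.3.3 with limma 3.58.1 (lmFit, eBayes with trend) fitted 1 mean per strain to log2(cpm + 1) over 24 libraries. The 16400 of 28802 genes whose mean reached 0.5 cpm were tested, two-sided, and called at a q-value under 0.01. Storey's q-value, with a smoothed share of true nulls, was written for this work and tested on simulated data. How it behaves where few genes are true nulls is not reported here. This limit bears most on limma's moderated F-test over all strains. That test called 97.2% of all genes, up to an unadjusted p of 0.466. Counting errors and depths cover counting only, and were worked out from the steps between values under 0.15 cpm, where 88.7% to 91.0% of values were whole reads within 0.03 of a read. The value equal to 3 reads was 0.0385 to 0.0523 cpm.

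Copies were found among GENCODE M21 transcripts with BLAST 2.17.0 (at least 100 bases, 90% identity, e-value up to 1e-10). Copies that shared over 50% of their 31-base words with a gene are called near-identical. Python 3.11.15, pandas 2.3.3 and numpy 2.4.6 made the tables.

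The members and the lists (other mitochondrial mRNAs, nuclear complex I subunits, assembly factors, mitochondrial transcription and RNA processing, DNA replication, markers) were chosen with earlier results of these data known. Named genes were all members, the other mitochondrial mRNAs and rRNAs, near-identical copies, the 2 genes most alike each member, and, of each nuclear list, up to 3 called genes with the largest positive and up to 3 with the largest negative moderated t in CAST/EiJ and in PWK/PhJ. Some of the genes this rule names are not reported here. Alternatives were a pseudocount of 0.1, no filter, a filter at 5 cpm, 4 other scalings, the Benjamini-Hochberg adjustment, a q-value limit of 0.05, eBayes without trend, near-identical copies added, and leaving out each library. Adding all aligned copies, alone or with rescaling, was chosen after seeing the data.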

Additional observations from a re-analysis of the deposited data

How the results depend on the processing

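Of 2205 values of member differences under the alternatives other than those chosen after seeing the data, 2070 kept their direction and their side of the threshold, 60 lost their call, 33 gained a call, 6 turned direction with a call on at least one side, and 36 turned direction with none. Of 126 values under those chosen after seeing the data, 96 were kept, 4 lost their call, 6 gained a call, 8 turned with a call and 12 with none. Calls that rest on a q-value close to the limit, such as those of mt-Nd1 and mt-Nd3 in CAST/EiJ, mt-Nd4l in PWK/PhJ and mt-Nd4l in WSB/EiJ, are the least firm. Where adding copies without rescaling turned a direction with a call on at least 1 side (mt-Nd2 and mt-Nd3 in CAST/EiJ), the copy differed more than the gene. Adding copies also turned mt-Nd5 in PWK/PhJ, where its mean went from below to above that of the 6 strains. Of the other changes the cause was not tested, except that fewer genes (9274) were tested with the stricter filter.

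In CAST/EiJ mt-Nd2 was at 0.45 with all copies added, and mt-Nd3 at -0.32 with near-identical and with all copies. With copies added and rescaling to the 13 mitochondrial mRNAs, CAST/EiJ had mt-Nd1 at -0.0155 and mt-Nd3 at -0.61, and PWK/PhJ had mt-Nd2 at 0.031 and mt-Nd5 at 0.30. Rescaling alone put PWK/PhJ at 0.0063 for mt-Nd1, 0.59 for mt-Nd5 and 0.21 for mt-Nd6. Between CAST/EiJ and PWK/PhJ, mt-Nd4l turned to -0.33 by rescaling and -0.32 with copies as well, and mt-Nd5 to -0.24 and -0.23, all 4 called. This rescaling shifted the median of all genes by 0.11 in CAST/EiJ, 0.59 in PWK/PhJ, -0.48 between them, -0.17 in 129S1/Svlmj, 0.12 in A/J, -0.17 in C57BL/6J and 0.18 in WSB/EiJ.

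Members called in WSB/EiJ were 0 with no filter, median-ratio scaling, quantile normalization, rescaling to nuclear genes, the Benjamini-Hochberg adjustment, eBayes without trend, near-identical copies and all copies added. With no filter 19.9% of all genes were called there, and without trend 31.9%. At a q-value limit of 0.05 there were 2 members, where 48.6% of all genes were called. Both no filter and the Benjamini-Hochberg adjustment left 3 members called in CAST/EiJ and 3 across the 6 strains. Of all genes, no filter gave 35.8% in CAST/EiJ and 39.7% across the 6 strains, and the adjustment 41.7% and 46.8%, so these counts are near the shares of all genes. In 129S1/Svlmj 1 member was called by rescaling to the 13 mRNAs, with or without copies, and 2 at a limit of 0.05, where 33.9% of all genes were called. In A/J 1 was called with copies and rescaling. The share of all genes called by rescaling to the 13 mRNAs is not given.

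With the filter at 5 cpm, genes called were 9218 across the 8 strains, 7136 across the 6, 4792 in CAST/EiJ, 4822 in PWK/PhJ, 4049 between them, 2093 in 129S1/Svlmj, 2039 in A/J, 1593 in C57BL/6J, 1820 in NOD/ShiLtJ, 1962 in NZO/HlLtJ and 3294 in WSB/EiJ. At a q-value limit of 0.05 they were 5554 in 129S1/Svlmj, 5699 in A/J, 4429 in C57BL/6J, 4856 in NOD/ShiLtJ, 5469 in NZO/HlLtJ and 7972 in WSB/EiJ.

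Leaving out 1 library at a time, genes called ranged over 15541 to 16361 across the 8 strains (members 7 to 7), 10577 to 12256 across the 6 (members 4 to 6), 6668 to 8504 in CAST/EiJ (members 3 to 5, with 3 without CAST/EiJ replicate 1 or 3), 6684 to 8517 in PWK/PhJ (members 3 to 5) and 5657 to 6980 between them (members 4 to 6). In single strains they were 2196 to 3542 in 129S1/Svlmj (members 0), with the lowest without its replicate 3, and 2074 to 3536 in A/J (members 0), without its replicate 2. C57BL/6J had 1972 to 2934 (members 2 to 6, the highest without its replicate 2), NOD/ShiLtJ 1808 to 3118 (members 0 to 1, with 0 without its replicate 3), NZO/HlLtJ 1995 to 3582 (members 2 to 3) and WSB/EiJ 3612 to 5499 (members 0 to 2, moved by 19 of 24 libraries).

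The share of called genes that were higher moved from 50.7% to 61.1% in 129S1/Svlmj and from 54.6% to 40.7% in C57BL/6J by rescaling to nuclear genes. With median-ratio, quantile and nuclear scaling it moved from 61% to 50.5%, 47.4% and 45.1% in NOD/ShiLtJ, and from 34.3% to 49.6%, 49.3% and 45.2% in WSB/EiJ. Between CAST/EiJ and PWK/PhJ these scalings, in that order, moved it from 41% to 50.6%, 50.9% and 49%. In CAST/EiJ it went from 42.1% to 49.4%, 49.8% and 45.3%, and in PWK/PhJ from 52.7% to 49.1%, 48.8% and 46.9%. NZO/HlLtJ went from 46.7% to 47.7%, 52.1% and 54.2%, and A/J from 53.7% to 48.4%, 49.9% and 56%.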
